A study of Mus musculus with 26 samples.

Results

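The genes described here encode 10 proteins of myoblast fusion, among the 55341 genes counted in each of 26 RNA-Seq libraries of C2C12, a mouse myoblast line that fuses into myotubes when serum is withdrawn. They were chosen by name, with earlier results of these data known. They are the fusogens Mymk and Mymx, the ferlins Myof and Dysf, the cadherins Cdh15 and Cdh2, the junctional adhesion molecules Jam2 and Jam3, and the adhesion G protein-coupled receptors Adgrb1 and Adgrb3. The comparisons address whether SMYD3, a lysine methyltransferase, acts on myogenic differentiation. In the siRNA experiment, C2C12 cells transfected with a control siRNA (siCtrl) or with siSMYD3#1 or siSMYD3#2 against Smyd3 were collected at 0 h and 24 h of differentiation, with 3 libraries in each of the 6 groups. In the overexpression experiment, C2C12 cells carrying the pREV retroviral vector with epitope-tagged SMYD3 (SMYD3 CL5, which is 1 clone) or the empty pREV vector (vector) were collected at 0 h and 24 h, with 2 libraries in each of the 4 groups. Replicates 1 and 2 of each siRNA group were extracted with NucleoSpin and replicate 3 with TRIzol, and all 8 overexpression libraries were extracted with TRIzol. In the siRNA experiment the culture passage differed with the extraction method, so their effects cannot be told apart. Since all SMYD3 CL5 libraries are of 1 clone, effects of the clone and of SMYD3 overexpression cannot be told apart in them.

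Total counts per library were 14315193 to 60398170 (median 25576626.5) in the siRNA experiment and 21124675 to 67853386 (median 41890109) in the overexpression experiment. The 7 myoblast markers (Myod1, Myf5, Des, Itga7, Chrna1, Msc and Vcam1) summed to 399.6 to 1119 CPM (a gene's counts scaled to a library size normalized by TMM within each experiment) in the 6 siRNA libraries extracted with TRIzol, 1698 to 2972 in the 12 extracted with NucleoSpin and 913.3 to 3070 in the overexpression libraries. Those 6 TRIzol libraries thus stood apart, at both times and under all 3 siRNAs, and the calls of members below are therefore also given within the extraction methods. The 5 markers of each of 5 other cell types summed in each library to at most 1.66 CPM (adipocyte), 3.81 CPM (endothelial), 20.8 CPM (macrophage), 39.0 CPM (fibroblast) and 92.8 CPM (osteoblast). Smyd3 itself averaged 19.5 CPM ± 1.48 in siCtrl, 16.5 ± 2.40 in siSMYD3#1 and 6.82 ± 2.45 in siSMYD3#2 at 24 h (SD, n = 3). It fell under siSMYD3#2, by 1.41 on the log2 scale at 0 h (SE 0.16, adjusted p = 0.000107) and by 1.51 at 24 h (SE 0.17, adjusted p = 5.06e-05), whereas in the libraries labelled siSMYD3#1 its log2 differences of -0.16 at 0 h (adjusted p = 0.785) and -0.24 at 24 h (adjusted p = 0.414) did not pass the test. In SMYD3 CL5 the Smyd3 row was 0.29 (0 h, adjusted p = 0.593) and 0.36 (24 h, adjusted p = 0.671) above vector on the log2 scale, and the sources used here do not say whether reads of the tagged construct were counted in it. Directions for siSMYD3#1 and SMYD3 CL5 therefore refer to the labels and not to a change of Smyd3 RNA measured in these libraries. By other assays, the study describes SMYD3 as knocked down by its siRNAs, with qPCR of Smyd3 and western blots of SMYD3. It also reports the tagged SMYD3 protein in its overexpressing clones.

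Myoblasts become multinucleated by recognising each other, adhering, remodelling actin at the contact and merging their membranes. Myomaker (Mymk), a multipass membrane protein, and myomixer (Mymx), a micropeptide, are the muscle-specific fusogens and are switched on at the onset of differentiation by the myogenic transcription factors. M-cadherin (Cdh15), N-cadherin (Cdh2), JAM-B (Jam2) and JAM-C (Jam3) hold apposed myoblasts together, myoferlin (Myof) and dysferlin (Dysf) act in membrane trafficking and repair, and BAI1 (Adgrb1) and BAI3 (Adgrb3) signal to the ELMO and DOCK1 actin pathway.

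The gene coordinates are those of GRCm38 (GENCODE M21). Mymk lies at chr2:27061636-27072179, Mymx at chr17:45600971-45602102, Myof at chr19:37899036-38043577, Jam3 at chr9:27097384-27155421 and Adgrb3 at chr1:25067476-25829707, all on the minus strand. Dysf lies at chr6:84008590-84211060, Cdh15 at chr8:122847966-122867397, Jam2 at chr16:84774123-84825928 and Adgrb1 at chr15:74516195-74589465, all on the plus strand. Their longest coding sequences differ widely, from 108 codons for Mymx and 221 for Mymk to 2061 for Myof and 2120 for Dysf. Opposite-strand genes cover 457 of 8328 exon bases of Dysf and 1159 of 3200 of Jam3, and since the strand setting of the counting is not given in the sources used here, part of their reads may belong to the neighbours. A same-strand gene covers 95 of 7222 exon bases of Adgrb1.

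The coding sequence of Mymx is shown because the whole micropeptide is encoded by 1 short coding exon, at chr17:45601417-45601671 on the minus strand (GRCm38). It has 255 bases, 84 codons and 64.3% GC and is shared by 3 of the 4 coding transcripts of the gene. Capitals mark the start and stop codons.
Mymx: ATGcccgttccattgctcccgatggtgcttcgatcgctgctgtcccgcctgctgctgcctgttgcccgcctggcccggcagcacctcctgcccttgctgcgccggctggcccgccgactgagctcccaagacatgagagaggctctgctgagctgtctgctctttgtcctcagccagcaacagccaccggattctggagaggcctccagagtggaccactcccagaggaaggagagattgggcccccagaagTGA

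The antisense strands of the 3 siRNAs are shown because every siRNA comparison below rests on them, with the seed, bases 2 to 8, in capitals.
siSMYD3#1: gUUGGGGUcacagcuguga
siSMYD3#2: uCAAAUCUucaaucaggcu
siCtrl: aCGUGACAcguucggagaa
The DNA complement of the seed, searched after the stop codon of 12563 tested coding genes on the transcript strand, was ACCCCAA for siSMYD3#1 (1416 genes, 11.3%), AGATTTG for siSMYD3#2 (1828 genes, 14.6%) and TGTCACG for siCtrl (424 genes, 3.4%). Among the 8 tested members 1 match was found, that of siSMYD3#1 in Mymk, at base 127 of the 552 after the stop codon (chr2:27062055-27062061, minus strand, matched bases in capitals).
Mymk: gtcttctctacACCCCAAgagac
This match is a description of the letters in this window, and whether siSMYD3#1 acts on Mymk RNA through it was not tested.

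The fusogen RNAs were at trace levels in myoblasts at 0 h and abundant at 24 h in siCtrl. Mymk measured 0.402, 0.840 and 0.626 CPM at 0 h in siCtrl replicates 1, 2 and 3 (11, 49 and 17 counts) and 75.4, 94.1 and 61.5 CPM at 24 h. Mymx measured 0.439, 0.549 and 0 CPM at 0 h and 27.1, 30.4 and 6.44 CPM at 24 h. All 3 libraries at 24 h were above all 3 at 0 h for both genes, and the TRIzol library was the lowest of the 3 at 24 h for both. Mymk rose by 6.86 (SE 0.36, edgeR adjusted p = 2.22e-09) and Mymx by 5.85 (SE 0.39, adjusted p = 7.82e-09) on the log2 scale. Mymk rose by 6.92 in a fit of the NucleoSpin libraries alone, and its log2 ratio between the TRIzol libraries was 6.62. For Mymx the NucleoSpin value was 5.78, and the TRIzol library at 24 h was at least 58.3-fold higher than the floor of 3 counts set for the 0 h library with 0 counts. Mymk went from above 18.9% of the tested genes at 0 h to above 93.9% at 24 h by CPM per kb of exon, and Mymx from 16.5% to 83.1%. In bulk RNA, more cells expressing a gene and more RNA per expressing cell cannot be told apart.

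Of the other members, Cdh15 and Dysf also rose over the first 24 h in siCtrl. Cdh15 measured 191, 242 and 72.1 CPM at 0 h and 430, 423 and 298 CPM at 24 h, with no overlap, and rose by 1.31 on the log2 scale (SE 0.25, adjusted p = 0.000842). Its rise was 0.96 within NucleoSpin (adjusted p = 1.29e-05), its log2 ratio was 2.05 between the TRIzol libraries, and the adjusted p reached 0.0294 when replicate 1 was left out of every group. That fit called 1752 genes in this comparison, beside 4655 over all libraries. Dysf measured 8.60, 8.80 and 12.4 CPM at 0 h and 19.0, 16.8 and 21.7 CPM at 24 h, with no overlap, and rose by 0.97 (SE 0.15, adjusted p = 4.21e-05), with 1.03 within NucleoSpin (adjusted p = 7.82e-06) and a log2 ratio of 0.80 between the TRIzol libraries. Thus 4 of the 8 tested members rose and 0 fell, where 14.6% of the 15820 tested genes rose and 14.8% fell, and the median log2 difference was 0.63 for the members and 0.03 for all tested genes. Fibroblast markers moved in the same comparison: 2 of the 3 tested of 5 rose, Pi16 (3.46, SE 0.31, adjusted p = 1.34e-07) and Dpt (2.55, SE 0.39, adjusted p = 5.70e-05), both named after their values were seen. The 5 summed to 4.68 to 8.56 CPM at 0 h and 18.35 to 25.96 CPM at 24 h in siCtrl, with Tcf21 and Thy1 at 3 counts or fewer, and their part in the members' rise was not tested. Myof (0.03, SE 0.08, adjusted p = 0.809), Cdh2 (0.16, SE 0.24, adjusted p = 0.619), Jam2 (0.29, SE 0.12, adjusted p = 0.0584) and Jam3 (0.11, SE 0.12, adjusted p = 0.495) did not pass the test. Within NucleoSpin alone Jam2 also rose, by 0.36 (adjusted p = 0.00247).

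**Figure D1:**
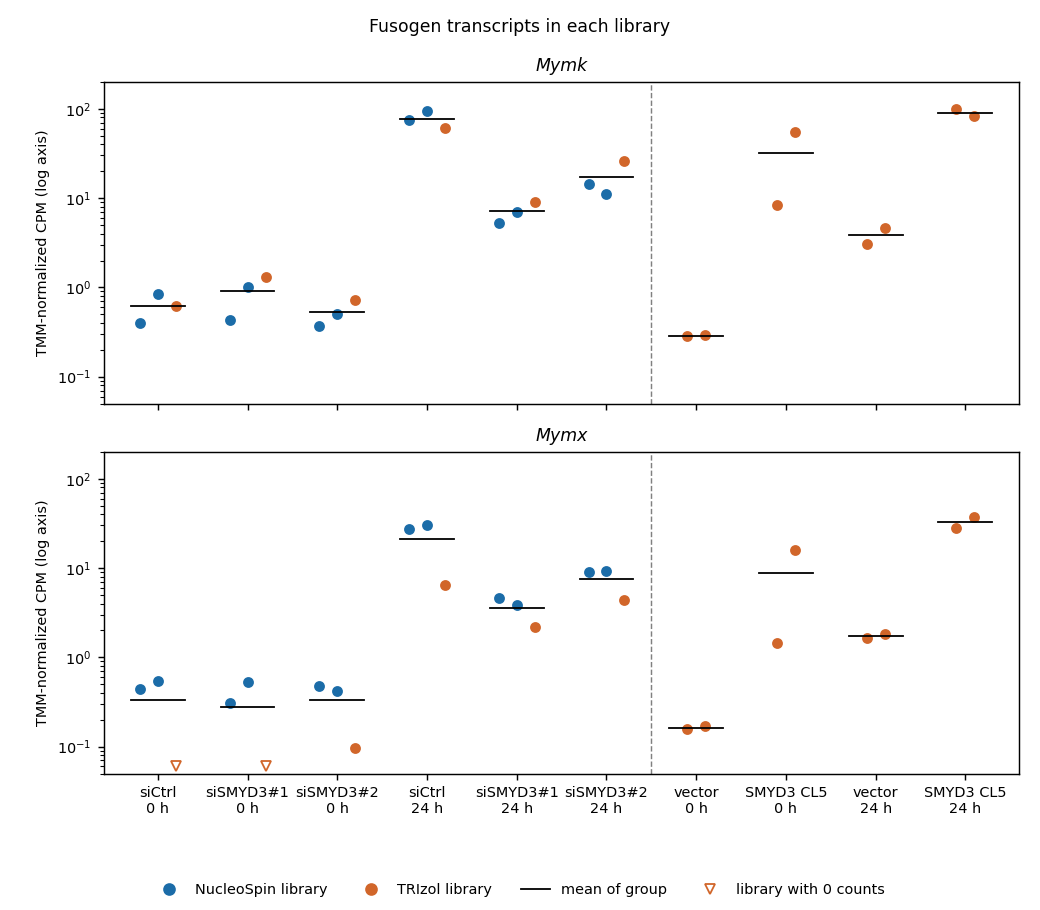
TMM-normalized CPM of Mymk and Mymx in each of the 26 libraries (log axis) by treatment, with 0 h and 24 h apart, blue points for NucleoSpin and orange points for TRIzol libraries, open triangles for libraries with 0 counts, and bars for group means. Mymk lies at 61.5 to 94.1 CPM in siCtrl at 24 h, above all siSMYD3#1 (5.29 to 9.07) and siSMYD3#2 (11.1 to 25.8) libraries, and at 8.30 and 54.9 CPM in SMYD3 CL5 already at 0 h.

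The order of the levels changed with time. At 0 h in siCtrl, mean CPM per kb of exon was 51.8 ± 26.8 for Cdh15, 43.7 ± 12.2 for Myof, 18.2 ± 3.27 for Jam2, 13.4 ± 0.198 for Cdh2, 4.35 ± 0.449 for Jam3, 1.19 ± 0.260 for Dysf, 0.412 ± 0.145 for Mymk and 0.321 ± 0.283 for Mymx (SD, n = 3). At 24 h the order was Cdh15 (118 ± 22.8), Mymk (51.0 ± 10.8), Myof (44.1 ± 9.31), Jam2 (22.5 ± 6.28), Mymx (20.7 ± 12.6), Cdh2 (15.9 ± 6.45), Jam3 (4.68 ± 0.469) and Dysf (2.30 ± 0.290). The neighbours whose SD intervals overlapped were Cdh15 and Myof, and Mymk and Mymx, at 0 h, and Mymk and Myof, Jam2 and Mymx, and Mymx and Cdh2 at 24 h.

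Adgrb1 and Adgrb3 were not measurable. Adgrb1 had between 0 and 8 counts in every library, with its highest group mean, 0.152 CPM, in SMYD3 CL5 at 0 h, and Adgrb3 had 0 counts in all 26 libraries. Both missed the filter on low counts, so 8 of the 10 members were tested in each experiment. A count of 0 allows up to 3 counts per library, and lower expression was not detectable at this depth.

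The fusogen RNAs were lower at 24 h under both Smyd3 siRNAs than under siCtrl. In the libraries labelled siSMYD3#1, Mymk measured 0.428, 0.998 and 1.32 CPM at 0 h and 5.29, 6.93 and 9.07 CPM at 24 h. Under siSMYD3#2 it measured 0.371, 0.506 and 0.724 CPM at 0 h and 14.6, 11.1 and 25.8 CPM at 24 h. At 24 h every library of either siRNA was below every siCtrl library, whereas at 0 h the groups overlapped. Against siCtrl at 24 h, Mymk fell by 3.50 on the log2 scale under siSMYD3#1 (SE 0.29, adjusted p = 2.27e-06) and by 2.24 under siSMYD3#2 (SE 0.27, adjusted p = 0.000173). These are 0.0882 and 0.211 of the siCtrl level. The fall was larger within NucleoSpin (-3.82 and -2.72, adjusted p = 3.12e-09 and 1.28e-07) than the log2 ratio between the TRIzol libraries (-2.76 and -1.25), a difference that was not tested. Left without replicate 1, with 1 NucleoSpin and 1 TRIzol library per group, the siSMYD3#1 call held (adjusted p = 0.00626) and the siSMYD3#2 call did not (adjusted p = 0.0646), nor did it without replicate 2 (adjusted p = 0.0520). These fits called few genes of any kind. For siSMYD3#1 at 24 h they called 31 genes without replicate 1 and 64 without replicate 2, beside 926 over all libraries. For siSMYD3#2 at 24 h it was 0 in both, beside 586.

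Mymx followed the same order of treatments at 24 h. It measured 4.57, 3.89 and 2.18 CPM in the libraries labelled siSMYD3#1 and 9.04, 9.29 and 4.35 CPM under siSMYD3#2, beside 27.1, 30.4 and 6.44 CPM in siCtrl. All siSMYD3#1 libraries were below all siCtrl libraries, but the siSMYD3#2 NucleoSpin libraries lay above the siCtrl TRIzol library. Mymx fell by 2.38 under siSMYD3#1 (SE 0.31, adjusted p = 6.08e-05) and by 1.31 under siSMYD3#2 (SE 0.29, adjusted p = 0.00879). DESeq2 did not call the siSMYD3#2 difference (-1.23, SE 0.55, adjusted p = 0.148), so that it called 2 and not 3 members in that comparison. Within NucleoSpin the differences were -2.74 (adjusted p = 8.70e-09) and -1.65 (adjusted p = 2.46e-06), and between the TRIzol libraries -1.56 and -0.56. Without replicate 1 neither was called (adjusted p = 0.0861 and 0.461), and without replicate 2 neither was (adjusted p = 0.0469 and 0.329). The number of all genes called fell in these fits too, as given above.

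The 24 h rise of the fusogens nonetheless passed the test under both siRNAs. From 0 h to 24 h, Mymk rose by 2.95 (SE 0.37, adjusted p = 2.24e-05) and Mymx by 3.90 (SE 0.46, adjusted p = 7.07e-06) in the libraries labelled siSMYD3#1, and by 5.04 (SE 0.38, adjusted p = 4.51e-07) and 4.55 (SE 0.41, adjusted p = 8.76e-07) under siSMYD3#2. Within NucleoSpin these rises were 3.12 and 3.38 in siSMYD3#1 and 4.89 and 4.28 under siSMYD3#2, and the Mymk log2 ratios between the TRIzol libraries were 2.78 and 5.16. In the TRIzol libraries labelled siSMYD3#1, where Mymx had 0 counts at 0 h, the 24 h library was at least 21.45-fold above the floor of 3 counts. Over all libraries Mymk and Mymx were the only members called over time under either siRNA, beside 12.7% (siSMYD3#1) and 9.11% (siSMYD3#2) of the tested genes that rose. Within NucleoSpin Jam2 also fell over time under both siRNAs, and Cdh2 in siSMYD3#1, as given below. Without replicate 1 the Mymx rise in siSMYD3#1 was not called (adjusted p = 0.0131), in a fit that called 577 genes over time there, beside 4016 over all libraries. The effect of siSMYD3#1 on Mymk differed between the times by -3.91 (SE 0.55, adjusted p = 0.00324). It was the 1 such member over all siRNA libraries, beside 0.171% of tested genes with a lower effect at 24 h. This call was lost without replicate 1 or 2 (adjusted p up to 0.187) and held within NucleoSpin (-3.80, adjusted p = 0.00103). Mymx (-2.41, adjusted p = 0.00406) and Jam2 (-0.71, adjusted p = 0.00357) were also called within NucleoSpin, in a fit that called 160 of 15222 genes. Without replicate 1 or 2, 0 genes were called in that comparison, beside 34 over all libraries. For siSMYD3#2, 0 members had a time-dependent effect past the threshold by edgeR or DESeq2, beside 0.019% and 0.569% of tested genes. An unadjusted p under 0.05 was reached by 4, as by 10% of tested genes. The values were -1.82 (SE 0.59, adjusted p = 0.263) for Mymk and -1.30 (SE 0.61, adjusted p = 0.489) for Mymx. Within NucleoSpin Jam2 was called for siSMYD3#2 (-0.73, adjusted p = 0.00301), beside 175 of 15222 genes.

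The ratio of Mymk to Mymx, each in CPM per kb, also differed between libraries at 24 h. In siCtrl it was 1.89, 2.11 and, in the TRIzol library, 6.50. It was 0.788, 1.21 and 2.83 in the libraries labelled siSMYD3#1, and 1.10, 0.815 and 4.03 under siSMYD3#2. The TRIzol library was thus the highest in each group. The siCtrl ratio was above that of both siRNA groups within each extraction method. In vector and SMYD3 CL5, all extracted with TRIzol and normalized separately, the ratio at 24 h was 1.25 and 1.72, and 2.36 and 1.50.

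Jam2, an adhesion molecule at myoblast contacts, was lower under the Smyd3 siRNAs as well, and in siSMYD3#1 already at 0 h. It measured 120, 122 and 87.0 CPM in siCtrl at 0 h, 77.8, 78.0 and 50.3 CPM in siSMYD3#1 and 107, 96.8 and 70.4 CPM in siSMYD3#2. At 24 h it measured 149, 166 and 93.0 CPM in siCtrl, 62.2, 60.5 and 57.9 CPM in siSMYD3#1 and 77.1, 83.7 and 75.2 CPM in siSMYD3#2. All siSMYD3#1 libraries at both times, and all siSMYD3#2 libraries at 24 h, lay below all siCtrl libraries. Jam2 fell by 0.68 in siSMYD3#1 at 0 h (SE 0.12, adjusted p = 0.00262) and by 1.13 at 24 h (SE 0.12, adjusted p = 7.55e-06), and by 0.75 under siSMYD3#2 at 24 h (SE 0.12, adjusted p = 0.000792). Its difference under siSMYD3#2 at 0 h was -0.27 (SE 0.12, adjusted p = 0.439).

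Within NucleoSpin the 3 Jam2 falls were 0.64 (adjusted p = 0.000248), 1.35 (adjusted p = 2.07e-08) and 0.97 (adjusted p = 1.83e-06) on the log2 scale, and between the TRIzol libraries the differences were -0.79, -0.68 and -0.31. All 3 calls were lost without replicate 1 or without replicate 2 (highest adjusted p = 0.244, 0.0177 and 0.155). In siSMYD3#1 at 0 h these fits called 0 and 3 genes, beside 226 over all libraries, and their 24 h numbers are given above. Over time Jam2 was not called in any siRNA group, but within NucleoSpin alone it rose by 0.36 in siCtrl, as given above, and fell by 0.36 in siSMYD3#1 (adjusted p = 0.00313) and by 0.37 under siSMYD3#2 (adjusted p = 0.00280). The log2 ratios between the TRIzol libraries were all positive, at 0.10, 0.20 and 0.09.

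**Figure D2:**
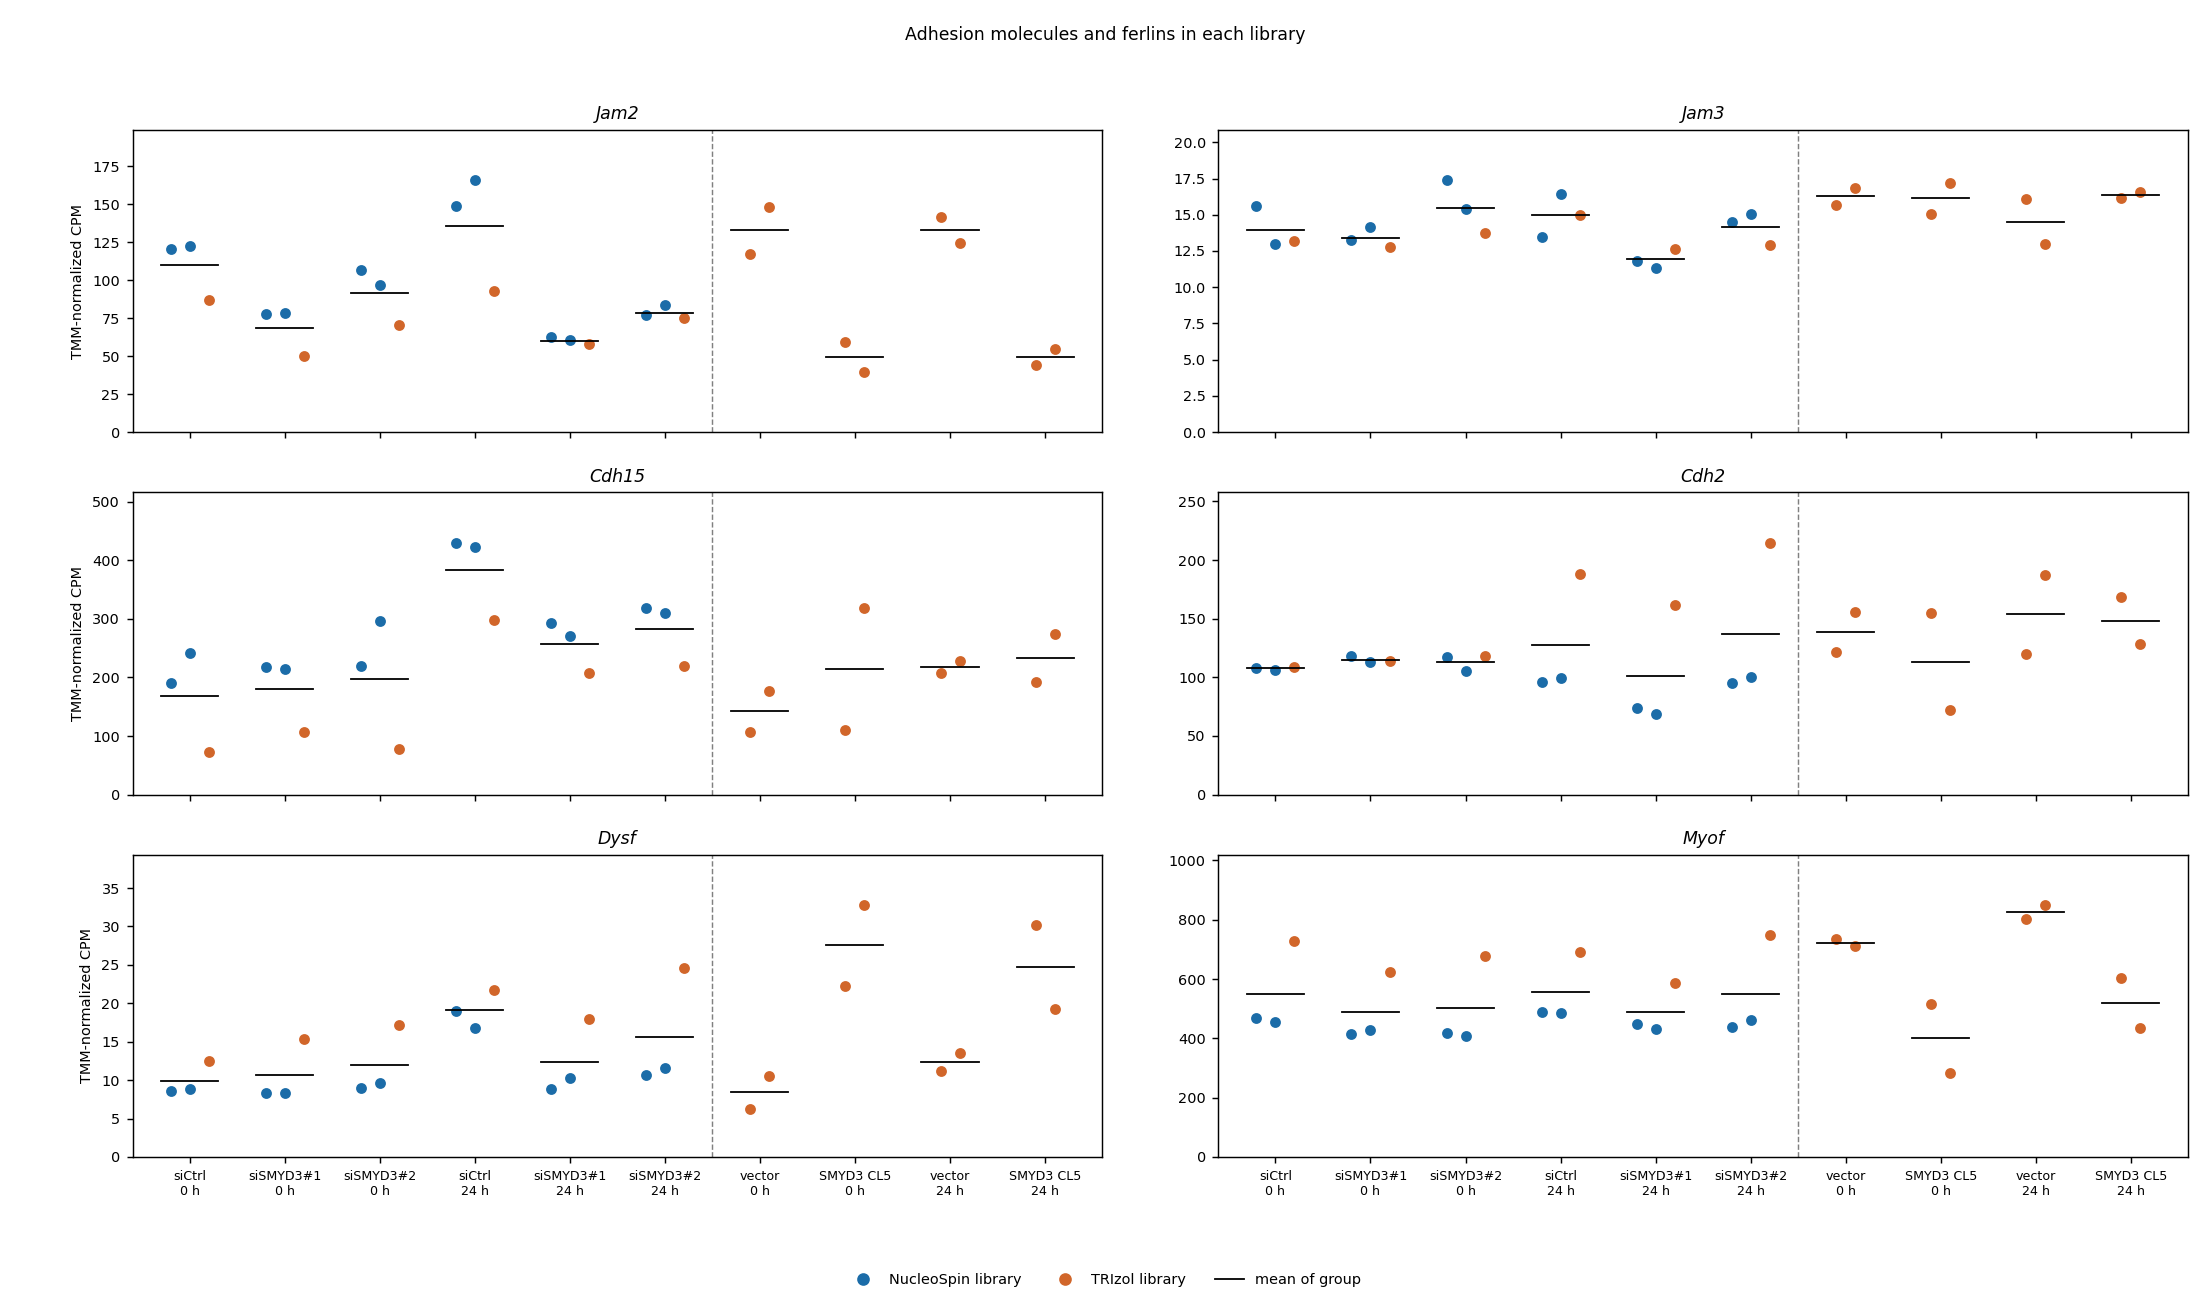
TMM-normalized CPM of Jam2, Jam3, Cdh15, Cdh2, Dysf and Myof in each of the 26 libraries (linear axes from 0) by treatment, with 0 h and 24 h apart, blue points for NucleoSpin and orange points for TRIzol libraries, and bars for group means. Jam2 is lower in siSMYD3#1 (57.9 to 62.2 CPM) and siSMYD3#2 (75.2 to 83.7 CPM) than in siCtrl (93.0 to 166 CPM) at 24 h, Jam3 stays between 11.3 and 17.4 CPM in every library, and Cdh2 at 24 h is higher in the TRIzol than in the NucleoSpin siRNA libraries.

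Dysf did not reach its siCtrl level at 24 h in the libraries labelled siSMYD3#1. It measured 8.37, 8.35 and 15.4 CPM at 0 h and 8.88, 10.3 and 17.9 CPM at 24 h, and under siSMYD3#2 9.00, 9.65 and 17.2 CPM at 0 h and 10.7, 11.6 and 24.6 CPM at 24 h. The TRIzol library was the highest in each of these groups, so that both siRNA groups overlapped siCtrl. At 24 h Dysf fell by 0.70 in siSMYD3#1 (SE 0.15, adjusted p = 0.00421), while under siSMYD3#2 the difference of -0.38 (SE 0.15, adjusted p = 0.127) did not pass the test. Within NucleoSpin both were called (-0.92, adjusted p = 0.000131, and -0.69, adjusted p = 0.00212), and the log2 ratios between the TRIzol libraries were -0.27 and 0.18. Without replicate 1 or without replicate 2 the siSMYD3#1 call was lost (adjusted p = 0.286 and 0.168), in fits that called 31 and 64 genes there, as given above.

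Cdh15 measured 293, 271 and 208 CPM at 24 h in the libraries labelled siSMYD3#1, all below the siCtrl range, and 319, 310 and 220 CPM under siSMYD3#2. The differences from siCtrl were -0.57 (SE 0.25, adjusted p = 0.180) and -0.44 (SE 0.25, adjusted p = 0.332) and did not pass the test, with 95% intervals of -1.05 to -0.08 and -0.93 to 0.05. Within NucleoSpin the siSMYD3#1 difference passed it (-0.59, adjusted p = 0.00295), and between the TRIzol libraries it was -0.52. At 0 h Cdh15 measured 218, 214 and 108 CPM in siSMYD3#1 and 220, 297 and 77.8 CPM under siSMYD3#2, overlapping siCtrl.

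The time course of Cdh2 (chr18:16588877-16809246, minus strand) went in opposite directions in the libraries of the extraction methods. In siCtrl it measured 108, 106 and 109 CPM at 0 h and 96.1, 99.6 and, in the TRIzol library, 188 CPM at 24 h. At 24 h it measured 73.6, 68.6 and 161 CPM in the libraries labelled siSMYD3#1 and 95.3, 100 and 215 CPM under siSMYD3#2. The TRIzol log2 ratios of 24 h to 0 h were positive in all 3 treatments (0.78, 0.50 and 0.86 on the log2 scale) and the NucleoSpin ratios negative (-0.13, -0.70 and -0.18). Over all libraries Cdh2 was not called against siCtrl at 24 h (-0.36 in siSMYD3#1, SE 0.24, adjusted p = 0.416, and 0.08 under siSMYD3#2, SE 0.24, adjusted p = 0.897). Within NucleoSpin it fell in siSMYD3#1 over time by 0.71 (adjusted p = 4.75e-06) and against siCtrl at 24 h by 0.46 (adjusted p = 0.00101). The part of the extraction, or of the culture passage that differs with it, in these values was not tested.

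Myof and Jam3 were not called in any siRNA comparison. Myof measured 409 to 489 CPM in the NucleoSpin libraries and 588 to 750 CPM in the TRIzol libraries. Jam3 measured 11.3 to 17.4 CPM. Against siCtrl at 24 h, the 95% intervals of the log2 difference were -0.33 to -0.03 (siSMYD3#1) and -0.19 to 0.11 (siSMYD3#2) for Myof, and -0.55 to -0.09 and -0.31 to 0.15 for Jam3, with adjusted p = 0.161, 0.848, 0.0955 and 0.757.

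Across the members, the siRNA effects at 24 h were thus downward in all 8 for siSMYD3#1 and in 7 of 8 for siSMYD3#2. In siSMYD3#1 4 members fell (Mymk, Mymx, Jam2 and Dysf) and 0 rose, where 2.94% of the tested genes fell and 2.91% rose, and the median log2 difference of the members was -0.63 against -5e-04 for all tested genes. Under siSMYD3#2 3 members fell (Mymk, Mymx and Jam2) and 0 rose, where 2.04% of the tested genes fell and 1.66% rose, with medians of -0.41 and 0.00. At 0 h 1 member, Jam2, fell in siSMYD3#1, where 0.853% of genes fell, and 0 were called by edgeR or DESeq2 under siSMYD3#2, where these called 0.531% and 1.23% of genes, and 1 member and 10.1% of genes had an unadjusted p under 0.05. The siRNA comparisons share the siCtrl libraries.

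Compared directly at 24 h, every tested member was higher in siSMYD3#2 than in siSMYD3#1, although none passed the edgeR threshold, which 3.36% of the tested genes did. The median log2 difference was 0.35 for the members and 0.01 for all tested genes. The differences were 1.26 for Mymk (SE 0.28, 95% interval 0.71 to 1.81, adjusted p = 0.0117), 1.07 for Mymx (SE 0.31, 95% interval 0.46 to 1.67, adjusted p = 0.0395), 0.38 for Jam2 (SE 0.12, adjusted p = 0.0560) and 0.44 for Cdh2 (SE 0.24, adjusted p = 0.312). The smallest were 0.13 for Cdh15 (SE 0.25, adjusted p = 0.828), 0.14 for Myof (SE 0.08, adjusted p = 0.299) and 0.24 for Jam3 (SE 0.12, adjusted p = 0.250). An unadjusted p under 0.05 was reached by 4 members (Mymk, Mymx, Jam2 and, with a difference of 0.32, Dysf) and 22.2% of the tested genes, and DESeq2 called 1 member, Mymk, and 6.1% of the genes. Within NucleoSpin 4 were called, beside 9.76% of the genes tested there: Mymk (1.10, adjusted p = 0.00256), Mymx (1.09, adjusted p = 0.000338), Jam2 (0.38, adjusted p = 0.00605) and Cdh2 (0.45, adjusted p = 0.00136). Mean levels of Mymk and Mymx at 24 h were thus lower in siSMYD3#1 than under siSMYD3#2, by differences not past the edgeR threshold over all siRNA libraries. Their relation to the Smyd3 level was not tested.

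**Figure D3:**
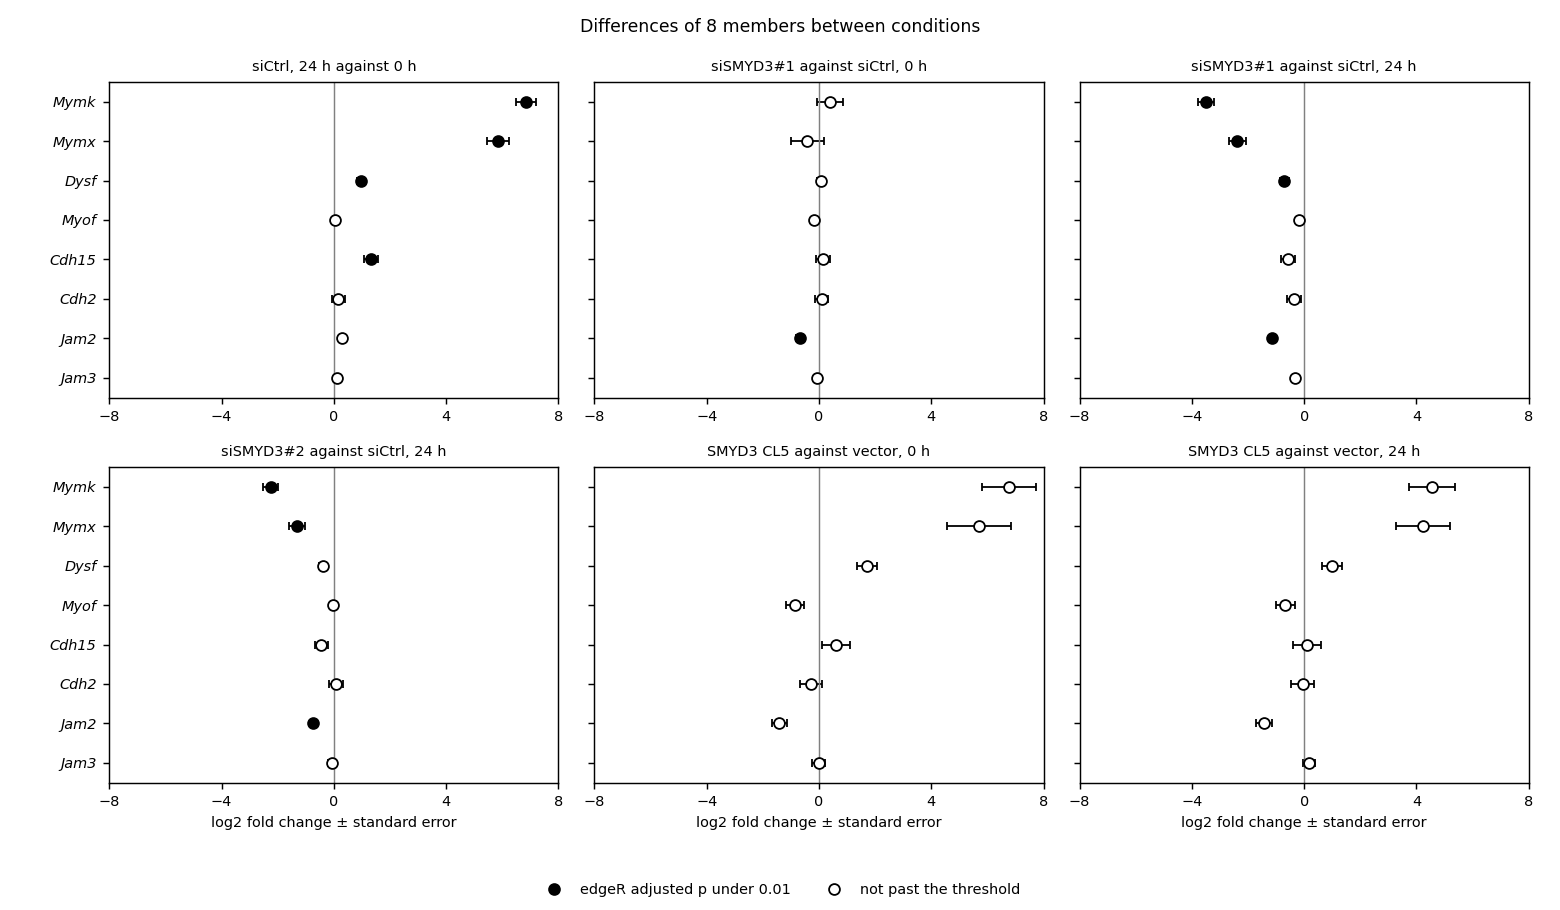
Log2 difference (points) and its standard error (bars) for the 8 tested members in 6 comparisons, with filled points for those past an adjusted p of 0.01. In siSMYD3#1 at 24 h all 8 points lie below 0, and 4 of them (Mymk, Mymx, Jam2 and Dysf) are filled. In SMYD3 CL5 Mymk and Mymx lie above 4 and Jam2 near -1.4 at both times, with open points.

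In the overexpression experiment the fusogens were above vector already at 0 h in SMYD3 CL5, but no member passed the edgeR test. Against vector, DESeq2 called Mymk, Mymx, Jam2 and Dysf at 0 h, beside 5.84% of tested genes. At 24 h it called Mymk, Mymx and Jam2, beside 4.91%. Mymk measured 0.283 and 0.292 CPM in vector at 0 h and 3.06 and 4.66 CPM at 24 h, and 8.30 and 54.9 CPM in SMYD3 CL5 at 0 h and 98.5 and 82.6 CPM at 24 h. Mymx measured 0.157 and 0.170 CPM in vector at 0 h and 1.66 and 1.84 CPM at 24 h, and 1.44 and 16.0 CPM in SMYD3 CL5 at 0 h and 28.4 and 37.3 CPM at 24 h. At both times, both SMYD3 CL5 libraries were above both vector libraries for both genes, and the 0 h SMYD3 CL5 libraries were far apart from each other. The Mymk difference was 6.77 at 0 h (SE 0.97, 95% interval 4.85 to 8.68, adjusted p = 0.0124) and 4.55 at 24 h (SE 0.82, 95% interval 2.94 to 6.15, adjusted p = 0.0306), and the Mymx difference was 5.71 (SE 1.14, adjusted p = 0.0403) and 4.22 (SE 0.96, adjusted p = 0.0650). The 0 h values depended on the SMYD3 CL5 libraries. Without replicate 1 of SMYD3 CL5 at 0 h they were 7.62 for Mymk and 6.64 for Mymx, and without replicate 2 they were 4.87 and 3.14. A fit without 1 of the 8 libraries leaves 1 library in that group and takes its spread from the other groups. Calls from such fits are therefore not given.

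Jam2 was lower and Dysf higher in SMYD3 CL5. Jam2 measured 117 and 148 CPM in vector at 0 h and 142 and 124 CPM at 24 h, and 59.6 and 39.8 CPM, and 44.4 and 54.4 CPM, in SMYD3 CL5. The groups did not overlap, and the log2 differences were -1.42 at 0 h (SE 0.27, adjusted p = 0.0356) and -1.43 at 24 h (SE 0.27, adjusted p = 0.0376). Dysf measured 6.25 and 10.6 CPM in vector at 0 h and 11.2 and 13.5 CPM at 24 h, and 22.3 and 32.8 CPM, and 30.2 and 19.3 CPM, in SMYD3 CL5, with differences of 1.71 (SE 0.37, adjusted p = 0.0492) and 1.00 (SE 0.36, adjusted p = 0.249). Without replicate 1 of SMYD3 CL5 at 0 h, the 0 h differences were -1.68 for Jam2 and 2.02 for Dysf. Over the fits that left out 1 library of either 0 h group, they ranged from -1.68 to -1.13 and from 1.43 to 2.14. Jam2 was thus lower than its control both in the siRNA groups at 24 h and in SMYD3 CL5. Mymk, Mymx and Dysf had opposite signs in the siRNA groups at 24 h and SMYD3 CL5. Of all these, only the siRNA values named above passed the edgeR test.

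The other members overlapped or differed less. Myof measured 734 and 712 CPM in vector at 0 h and 804 and 849 CPM at 24 h, and 517 and 285 CPM, and 604 and 434 CPM, in SMYD3 CL5, with differences of -0.85 (SE 0.33, adjusted p = 0.232) and -0.67 (SE 0.33, adjusted p = 0.442). Without replicate 1 of SMYD3 CL5 at 0 h, the Myof difference at 0 h was -1.29. Over the fits that left out 1 library of either 0 h group, it ranged from -1.29 to -0.46. For Cdh15 the 95% intervals were -0.37 to 1.56 at 0 h and -0.86 to 1.06 at 24 h, for Cdh2 -1.08 to 0.50 and -0.84 to 0.73, and for Jam3 -0.45 to 0.42 and -0.26 to 0.61. At 0 h edgeR called 0 members in SMYD3 CL5 against vector, beside 1.07% of the 17835 tested genes, with 5 members and 18.3% of genes at an unadjusted p under 0.05, and 4 members and 5.84% of genes called by DESeq2. At 24 h it called 0, beside 0.964% of genes, with 4 members and 14% of genes at an unadjusted p under 0.05, and 3 members and 4.91% of genes called by DESeq2. The spread is wider here than in the siRNA experiment, with a common dispersion of 0.0903 against 0.0159.

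Over time, edgeR called 0 members in vector (0% of all genes) with 2 at an unadjusted p under 0.05 (7.04% of genes) and 1, Mymk, called by DESeq2 (0.65% of genes). It called 0 in SMYD3 CL5 (0% of all genes), with 0 at an unadjusted p under 0.05 (6.38% of genes) and 0 called by DESeq2 (0.594% of genes). The log2 differences of 24 h from 0 h were 3.74 (SE 0.91, adjusted p = 0.415) for Mymk and 3.39 (SE 1.12, adjusted p = 0.572) for Mymx in vector, and 1.52 (SE 0.72, adjusted p = 0.819) and 1.91 (SE 0.86, adjusted p = 0.803) in SMYD3 CL5. Without replicate 2 of SMYD3 CL5 at 0 h the latter were 3.44 and 4.50, and without replicate 1 they were 0.70 and 1.01. The change of the SMYD3 CL5 effect between the times was -2.22 for Mymk (SE 1.15, adjusted p = 1.00) and -1.48 for Mymx (SE 1.40, adjusted p = 1.00), again with 0 members and 0% of all genes called, and 0 members by DESeq2 (0.0112% of genes) or at an unadjusted p under 0.05 (1.75% of genes). Without replicate 2 of SMYD3 CL5 at 0 h these were -0.31 and 1.10, and without replicate 1 -3.03 and -2.38.

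Myogenic transcription factors stand upstream of the fusogens. Of 13 such genes, 6 rose and 1 fell over time in siCtrl, beside 14.6% and 14.8% of all tested genes. Against siCtrl at 24 h, 4 fell in siSMYD3#1, beside 2.94% of all tested genes, and 2 under siSMYD3#2, beside 2.04%. Myog, the factor of terminal differentiation, averaged 1.05 CPM ± 0.843 at 0 h and 180 ± 110 at 24 h in siCtrl, 14.2 ± 7.53 at 24 h in siSMYD3#1 and 41.7 ± 9.30 under siSMYD3#2 (SD, n = 3). It rose by 7.25 over time in siCtrl (SE 0.38, adjusted p = 8.45e-09) and fell by 3.59 in siSMYD3#1 (SE 0.30, adjusted p = 5.40e-06) and by 1.81 under siSMYD3#2 at 24 h (SE 0.28, adjusted p = 0.00125). In SMYD3 CL5 it rose by 6.86 against vector at 0 h (SE 0.89, adjusted p = 0.00885), where 1 of the 13 genes and 0.465% of all tested genes rose, and differed by 3.82 at 24 h (SE 0.73, adjusted p = 0.0376).

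Myod1, the determination factor, differed by -0.41 in siSMYD3#1 (SE 0.29, adjusted p = 0.455) and by -0.94 under siSMYD3#2 at 24 h (SE 0.31, adjusted p = 0.0716), and by 1.79 at 0 h in SMYD3 CL5 (SE 0.36, adjusted p = 0.0392). Myf5, its close relative, differed by -0.36 (SE 0.11, adjusted p = 0.0312) and -0.31 (SE 0.11, adjusted p = 0.0760) under the siRNAs at 24 h. In SMYD3 CL5 at 0 h it differed by -2.69 (SE 0.43, adjusted p = 0.0181). Mef2c, a cofactor of the myogenic factors, differed by 0.15 (SE 0.40, adjusted p = 0.869) and -0.68 (SE 0.43, adjusted p = 0.385) under the siRNAs at 24 h.

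Over the 18 siRNA libraries, the genes whose log2 CPM was most like that of Mymk among 10815 genes with a mean of at least 100 counts included Tnnt1 and Ppfia4 (Pearson's r = 0.985 each), Iffo1 (0.982) and Lama2 (0.981). For Mymx they were Myog (0.992), Cd82 (0.985), Atp2a1 (0.985), Tnni2 (0.980) and Bves (0.980). These values are descriptive, since the 18 libraries share the contrast between 0 h and 24 h and the extraction methods.

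A wider list of 55 genes of the fusion machinery (integrins, actin regulators, membrane-bending and adhesion proteins), of which 51 were tested in the siRNA fit, included genes that rose and genes that fell. Over time in siCtrl 12 rose and 4 fell, with a median of 0.12, where 14.6% of all tested genes rose and 14.8% fell. The largest rises were those of Itga4, an integrin subunit (2.77, SE 0.35, adjusted p = 6.82e-06), Ckb, the brain-type creatine kinase (1.72, SE 0.24, adjusted p = 4.58e-05), and Capn3, a muscle calpain (1.41, SE 0.17, adjusted p = 3.89e-06). The largest falls were those of the interleukin 4 receptor Il4ra (-0.66, adjusted p = 0.000211), the co-receptor Boc (-0.65, adjusted p = 0.00657) and the nephrin-like Kirrel (-0.35, adjusted p = 0.00446).

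Under the siRNAs at 24 h, 8 and 3 of the 51 genes were called. In siSMYD3#1 6 rose and 2 fell, with a median of -0.01, where 2.91% of all tested genes rose and 2.94% fell. The 3 largest rises were those of Boc (0.81, SE 0.18, adjusted p = 0.00548), Kirrel3 (0.81, SE 0.19, adjusted p = 0.00747) and the membrane protease Mmp14 (0.80, SE 0.12, adjusted p = 0.000138), and the falls were those of the transcription factor Nfatc2 (-0.95, SE 0.23, adjusted p = 0.00879) and the laminin-binding integrin Itga7 (-0.57, SE 0.11, adjusted p = 0.00164). Under siSMYD3#2 1 rose, the integrin subunit Itgb1 (0.43, SE 0.08, adjusted p = 0.00267), and 2 fell, Itga4 (-1.97, SE 0.35, adjusted p = 0.00191) and Ckb (-1.23, SE 0.24, adjusted p = 0.00507), with a median of -0.04, where 1.66% of all tested genes rose and 2.04% fell.

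At 0 h in siSMYD3#1 2 genes of the wider list rose, beside 0.575% of all tested genes, Itgb1 (0.39, SE 0.08, adjusted p = 0.00940) and Mmp14 (0.68, SE 0.12, adjusted p = 0.00226). Under siSMYD3#2 at 0 h edgeR called 0, with 9 at an unadjusted p under 0.05 and 1 called by DESeq2, beside the 0.531%, 10.1% and 1.23% of all tested genes given above. Between the siRNAs at 24 h 3 were lower in siSMYD3#2, beside 2.05% of all tested genes, Kirrel3 (-1.20, SE 0.19, adjusted p = 0.000705), Mmp14 (-0.78, SE 0.12, adjusted p = 0.000432) and the raft protein Flot1 (-0.59, SE 0.11, adjusted p = 0.00198). In SMYD3 CL5, 1 of 53 tested genes passed the test at each time (0.465% of all tested genes rose at 0 h and 0.376% at 24 h), Fst, which encodes the activin and myostatin antagonist follistatin, and it rose by 2.83 at 0 h (SE 0.37, adjusted p = 0.00927) and by 4.43 at 24 h (SE 0.40, adjusted p = 0.00242).

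Of the members, 4 (Myof, Dysf, Cdh15 and Adgrb3) had a RefSeq promoter entry (GRCm38.p6, 250 bases before the start). An E-box, CANNTG, which reads as CANNTG on the other strand too, was found 3 times for Cdh15, 2 times for Adgrb3 and not in those of Dysf and Myof, and 66.2% of the 32851 promoters hold it. The narrower E-box CAGCTG (13.0% of promoters) and, on both strands, CCCTCC (35.2%) and CATTCC (12.6%) were in none of the 4. The Cdh15 matches are shown, as that gene rose over time in siCtrl, with the matched letters in capitals, on the plus strand at chr8:122848126-122848155, chr8:122848227-122848256 and chr8:122848330-122848359.
Cdh15, 236 bases before the start: aggcactgatcaCATATGctgtcactcaga
Cdh15, 135 bases before the start: caggcccacctaCATGTGctgtcactcatc
Cdh15, 32 bases before the start: cgccccaccacaCACGTGcagtcccttggc
GENCODE M21 places these bases in the first exon of Cdh15, so the start used by RefSeq lies downstream of the one GENCODE gives. A match describes the letters only.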

How the data were processed

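C2C12 polyA RNA was sequenced as paired-end reads from stranded libraries. The authors deposited raw counts per gene for each library, with no normalization. The submitters' processing notes name FastQC 0.11.5, HISAT2 2.1.0, GRCm38 and featureCounts of Subread 1.6.3. The strand setting and annotation of the counting are not given in the sources used here. Such counts depend on the authors' alignment and assignment. Of 55341 genes, 54409 were matched by identifier to GENCODE M21 for symbols, positions and exon lengths, and 932 had no symbol. Checked pairwise, 0 pairs of libraries were identical.

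Groups and extraction came from the public labels, and replicate numbers and passages from the study's sample list. The study calls the replicates biological. P-values measure the spread between these samples. In the overexpression experiment this does not include the spread between SMYD3 clones. CPM are counts per TMM-normalized library size, set within each experiment, so levels of the experiments are side by side only, and CPM per kb divide by exon length. Counts were tested with edgeR 4.0.16 (R 4.3.3, limma 3.58.1) after filterByExpr and TMM, by robust quasi-likelihood tests with Benjamini-Hochberg adjustment over all tested genes and a threshold of 0.01, as in the study. The siRNA fit held 18 libraries, 6 groups and extraction as a covariate (15820 genes), and the overexpression fit 8 libraries and 4 groups (17835 genes). SE is the absolute log2 difference over the square root of F, and 95% intervals use it. Within-extraction values come from a fit of the 12 NucleoSpin libraries and from untested ratios between single TRIzol libraries. The procedure was tested on simulated data. Floors of 3 counts cover counting error only.

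Alternatives were DESeq2 1.42.0, RLE size factors, no filter, a threshold of 0.05, the replicate block, no extraction covariate, NucleoSpin libraries alone, all 26 libraries in 1 fit and leaving out replicates.

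The members and lists were chosen with earlier results of these data known. Named were all 10 members, Smyd3, Myod1, Myog, Myf5, Mef2c, the 3 largest rises and falls past the threshold among the 55 genes of the wider list, and the 5 genes most correlated with each fusogen, of which 1 is not reported here. Sequences are from GRCm38 and RefSeq tables, and siRNA strands from the study's supplementary list.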

Additional observations from a re-analysis of the deposited data

Results flagged for a closer look

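The effect of siSMYD3#1 on Mymk differed between the time points by a test of the difference itself. The change in effect from 0 h to 24 h was -3.91 on the log2 scale (SE 0.55, edgeR adjusted p = 0.00324), with mean levels in siSMYD3#1 and siCtrl of 0.915 and 0.623 CPM at 0 h and 7.10 and 77.0 CPM at 24 h.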

How the results depend on the processing

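No member tested changed the sign of a call under any alternative run, and RLE size factors left every count of members as reported. Without the extraction covariate the count was 2 (main 4) for siCtrl over time, 1 (2) for siSMYD3#1 over time, 0 (1) for siSMYD3#1 at 0 h, 1 (4) at 24 h, 0 (3) for siSMYD3#2 at 24 h and 0 (1) for the time dependence of the siSMYD3#1 effect. Over all tested genes it was 1676 (4655), 1053 (4016), 15 (226), 102 (926), 18 (586) and 2 (34) in the same order. With NucleoSpin libraries alone the members' count was 4 (2) for siSMYD3#1 over time, 4 (0) between the siRNAs, and 3 (1) and 1 (0) for the time dependence of the siSMYD3#1 and siSMYD3#2 effects. Over all genes these were 5294 (4016), 1486 (532), 160 (34) and 175 (3). With all 26 libraries in 1 fit the members' count was 0 (1) for siSMYD3#1 at 0 h, 2 (4) at 24 h, 0 (3) for siSMYD3#2 at 24 h, 0 (1) for the time dependence of the siSMYD3#1 effect, 1 (0) for vector over time, and 5 and 4 (0 and 0) for SMYD3 CL5 at 0 h and 24 h. Over all genes these were 42 (226), 342 (926), 88 (586), 6 (34), 171 (0), 1995 (191) and 1334 (172). DESeq2 called 2 (3) members for siSMYD3#2 at 24 h, without Mymx, 1 between the siRNAs, 1 for vector over time, and 4 and 3 for SMYD3 CL5 at 0 h and 24 h. Over all genes it called 1024 (586), 965 (532), 116 (0), 1041 (191) and 875 (172). With no filter the members' count was 3 between the siRNAs, 3 and 2 for the time dependence of the siSMYD3#1 and siSMYD3#2 effects, 2 for vector and 2 for SMYD3 CL5 over time, and 4 and 3 for SMYD3 CL5 at 0 h and 24 h. Over all genes these were 1092 (532), 277 (34), 230 (3), 203 (0), 216 (0), 1246 (191) and 1032 (172). At an adjusted p of 0.05 the members' count was 2 between the siRNAs, and 4 and 2 for SMYD3 CL5, beside 1349 (532), 716 (191) and 596 (172) genes. The cause of these shifts was not tested.

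In the siRNA experiment, leaving out a replicate gave counts of members of 1 to 4 for siSMYD3#1 over time, 0 to 1 at 0 h, 1 to 6 at 24 h, 0 to 4 for siSMYD3#2 at 24 h, 0 to 4 between the siRNAs, and 0 to 3 and 0 to 1 for the time dependence of the siSMYD3#1 and siSMYD3#2 effects. Over all tested genes the counts were 577 to 5294, 0 to 462, 31 to 1772, 0 to 1275, 0 to 1486, 0 to 160 and 0 to 175 in the same order. In the overexpression experiment the group left with 1 library was assumed to vary like the others, so only effect sizes are given above.

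Same-numbered siRNA libraries deviated together (correlations of 0.366 to 0.851), but among the NucleoSpin replicates 1 and 2 unlike numbers did so as well (0.402 to 0.609, beside 0.366 to 0.660 for like numbers). Of 48 library comparisons 36 were highest with their own number, and within the NucleoSpin libraries alone the same-number correlations were -0.041 to 0.177. The correlations thus follow the split of replicate 3 from replicates 1 and 2, where extraction and culture passage cannot be told apart. They do not show that replicates 1 and 2 are paired. With the replicate block Mymx under siSMYD3#2 at 24 h was -1.31 and was not called (adjusted p = 0.0147, 2 members in place of 3), and no other siRNA call of a member changed. In the overexpression experiment the samples share only a number (correlations of -0.008 to 0.483 over time and 0.145 and -0.097 between treatments), and with the block 1 member, Mymk, was called at 0 h (6.54, adjusted p = 0.00744). Depth limits statements on Adgrb1, Adgrb3 and the fusogens at 0 h.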
